A study of Rattus norvegicus with 30 samples.

Results

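Transcripts of the lysosome and of the proton pump that acidifies it were measured in the frontal cortex of 30 male rats. The genes were taken by symbol from a list of 40, which was drawn up with earlier results of these data known, and 36 of them were among the 17134 genes measured. These were 13 subunits of the pump and 23 other lysosomal genes, which encode membrane proteins, cathepsins, glycosidases and a lipase, luminal cofactors and the regulator Tfeb. Atp6v0b, Atp6v1f, Gla and Lamp2 were not analysed here.

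RNA-seq gave 1 library per rat, and rats were not pooled. All were males on a normal diet, 10 wild-type (WT) rats and 10 HIP rats, which the series describes as Sprague Dawley, and 10 amylin knockout (AKO) rats. WT rats have their own rat amylin, and HIP rats carry in addition a human amylin transgene that is expressed in pancreatic β-cells and goes with type-2 diabetes. AKO rats lack rat amylin, the product of Iapp, which was not analysed here. WT and HIP rats were 15 to 16 months old. The methods give the same age for 3 AKO rats that served as negative controls and, in the passage on HIP and WT rats, for experiments not otherwise listed there, which may not cover the 10 AKO rats of the RNA-seq. The study gives a younger age for other AKO rats, used for arterial tone or injected with human amylin. The 10 AKO rats of the RNA-seq may thus differ in age from the WT and HIP rats. No strain is given here for the AKO rats. Their numbers, with KAH or AKO, are of other series than those of WT and HIP rats, with RT. A difference of line or colony therefore could not be told apart from the knockout. The tissue has 3 names, frontal cortex in the labels, cerebral cortex in the methods of the study and hippocampal tissue in its results.

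As background, the vacuolar proton pump is built from a cytosolic V1 sector, which binds and splits ATP, and a V0 sector in the membrane, through which protons pass into the lumen. The acid lumen activates hydrolases, among them cathepsins that cut proteins and glycosidases that trim glycans and glycolipids, while membrane proteins and cofactors move cholesterol and other products out. In brain, neurons depend on the same pump to load synaptic vesicles, microglia hold many lysosomes, and the transcription factor Tfeb binds a short motif, CACGTG with its flanks, near many lysosomal genes.

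Values are normalized counts, the numbers of reads per gene after scaling between libraries. They are not per length of transcript, so levels were not compared between genes. Normalized counts summed to 15.4 to 17.6 M (mega) in WT libraries, 15.7 to 17.2 M in HIP libraries and 15.8 to 18 M in AKO libraries. The number of reads behind each library was estimated by taking the value of 1 read as the spacing that fits most of its values below 100. It was 18.5 ± 2.6 M in WT rats (lowest 12.9 M, median 19.1 M, highest 21.2 M), 15.4 ± 1.02 M in HIP rats (lowest 13.7 M, median 15.7 M, highest 16.7 M) and 17 ± 3.41 M in AKO rats (lowest 12.9 M, median 16.1 M, highest 23.6 M). Here and in all that follows, values with ± are means ± SD of the 10 rats of a group, and a rat is named by its number in the labels.

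All but 1 of the libraries had neocortex markers at a similar level, and several stood apart by genes of other tissues. The mean of 7 neocortex markers, on the scale of log2(normalized count + 1), was 6.21 in WT rat 10RT43, whereas the next lowest WT rat had 10.2, the lowest HIP rat 10.2 and the lowest AKO rat 10.0. Gabra6, a receptor subunit of cerebellar granule cells, reached 17979 normalized counts in 10RT43 and 1564 in HIP rat 12RT23. The sum of the 8 measured cerebellum markers was 69173 in 10RT43 and 7910 in 12RT23, and at most 1009 in the other WT rats. Tph1, an enzyme of melatonin synthesis in the pineal gland, reached 19081 normalized counts in HIP rat 10RT46, whose 10 choroid plexus markers summed to 17749. These 3 libraries are the ones with Gabra6 or Tph1 above 100 normalized counts, and the counts of members are given with them and without them, which leaves 9 WT, 8 HIP and 10 AKO rats.

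Other libraries stood apart as well and were kept in both settings. The sum of 4 olfactory bulb markers was 10060 in WT rat 10RT51, 8744 in WT rat 10RT50, 9288 in AKO rat 6AKO35, 5706 in HIP rat 10RT53 and 4564 in HIP rat 10RT49, against group medians of 269.1 (WT), 455.8 (HIP) and 884.7 (AKO). Choroid plexus markers summed to 4106 in AKO rat 7AKO19 (AKO median 364.7), and 2 blood markers to 41234 in AKO rat 4KAH35 (AKO median 8769). Striatum markers ranged from 2538 to 17955 in WT rats. Leaving these libraries out together was not tested. HIP rat 10RT48 had a sum of 12147 over 9 microglia markers and AKO rat 4KAH27 had 3666. AKO rat 6KAH98 was the highest AKO rat for Atp6v1d, Atp6v1e1, Atp6v1g2, Atp6v0c, Atp6v0d1, Atp6v0e2, Lamp1, Mcoln1, Ctsa and Ctsf, among others. The same rat was the lowest AKO rat for Atp6v1a, Npc1 and Scarb2, among others.

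**Figure D1:**
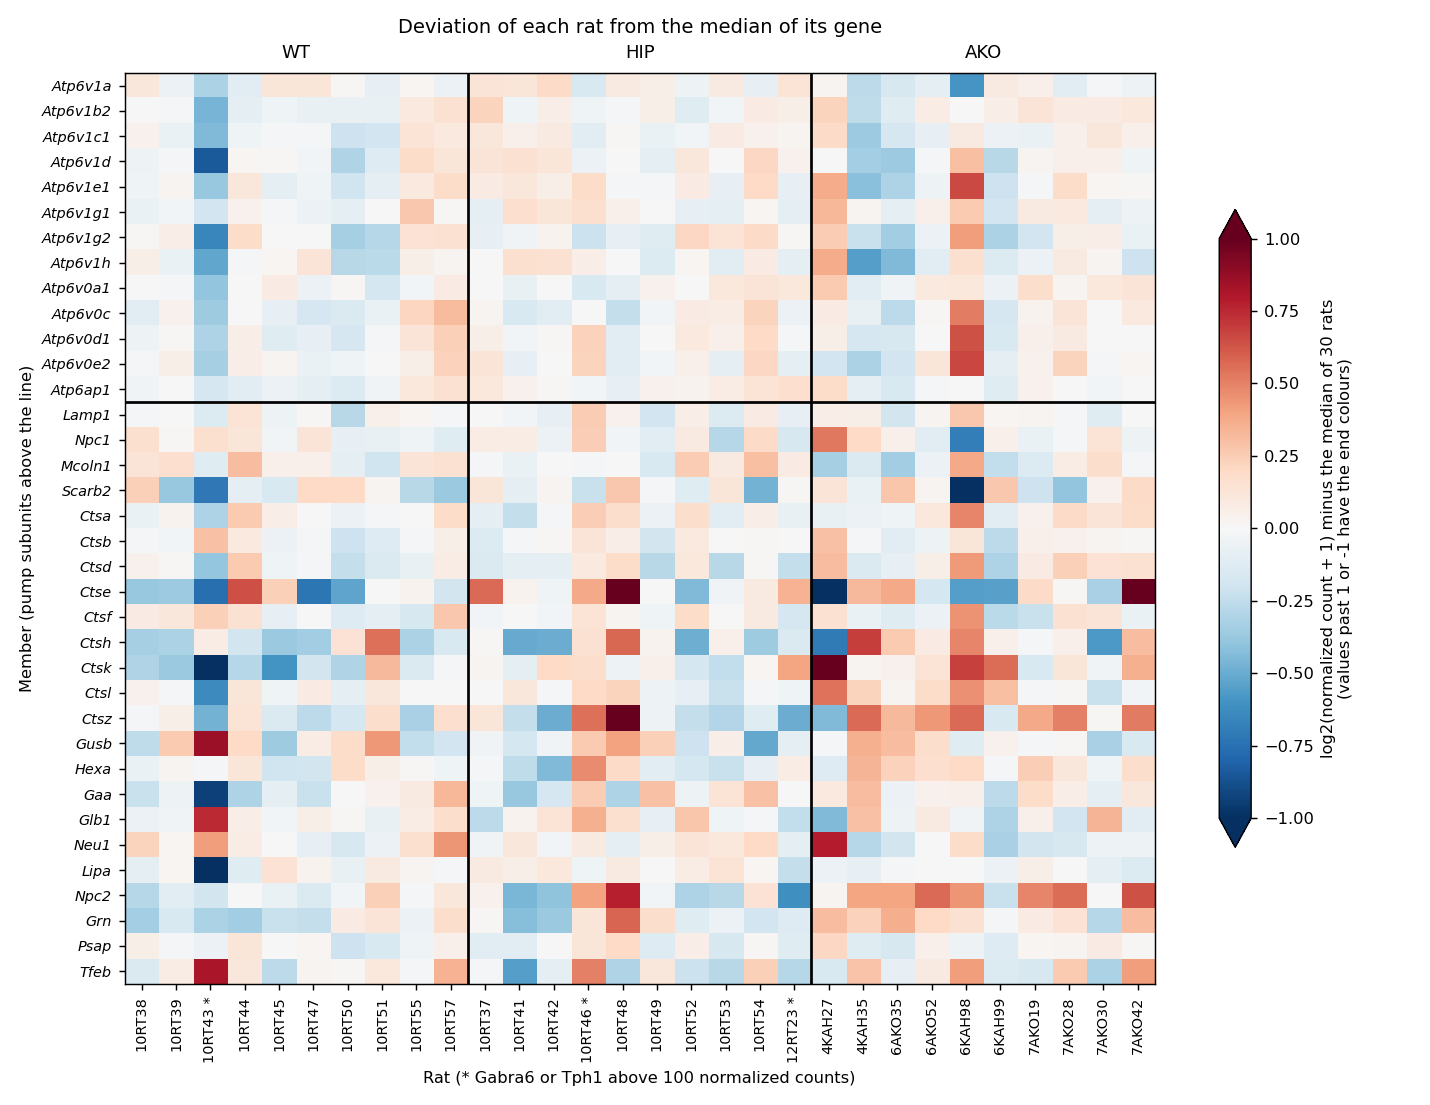
Each cell is the log2 value of 1 member in 1 rat minus the median of that gene over 30 rats, with red for higher and blue for lower, and the 13 pump subunits stand above the horizontal line. WT rat 10RT43 is blue over most pump subunits, and HIP rat 10RT48 is red over Ctsz, Npc2 and Grn.

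Promoter sequence is a feature that the choice of members did not use. In a RefSeq table of the rat assembly GRCr8, which is not the rn7 build of the expression files, 33 of the 40 listed genes had an entry, 29 of them measured. The 250 bases before each start were searched for CACGTG, the core of the Tfeb motif, which reads the same on both strands. It was in 1 of 9 pump promoters and in 6 of 20 other lysosomal promoters, and in 5.59% of all 33469 windows of the same length. Besides Atp6v0d1, Lamp1 and Ctsd, the genes were Mcoln1, Ctsf, Gaa and Glb1. The promoters of Lamp1 (chr16:83075064-83075313, minus strand), Ctsd (chr1:206968822-206969071, minus strand) and Atp6v0d1 (chr19:50357249-50357498, minus strand) are shown for the motif, with its letters in capitals, 5′ to 3′ up to the start. Lamp1 held it 5 times, Ctsd 2 times and Atp6v0d1 1 time, in this last at 52 bases before the start. Npc2 (chr6:110149246-110149495, minus strand) and Ctsz (chr3:183653848-183654097, minus strand) are shown because their transcripts differed between groups (values further on), and the letters are not in their windows. A match is a description of the sequence and not a measured binding site.
Lamp1: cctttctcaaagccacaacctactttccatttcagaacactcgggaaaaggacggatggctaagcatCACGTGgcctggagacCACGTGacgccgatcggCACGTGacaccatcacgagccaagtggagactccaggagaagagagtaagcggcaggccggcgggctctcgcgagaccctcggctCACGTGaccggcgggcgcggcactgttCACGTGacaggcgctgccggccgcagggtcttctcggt
Ctsd: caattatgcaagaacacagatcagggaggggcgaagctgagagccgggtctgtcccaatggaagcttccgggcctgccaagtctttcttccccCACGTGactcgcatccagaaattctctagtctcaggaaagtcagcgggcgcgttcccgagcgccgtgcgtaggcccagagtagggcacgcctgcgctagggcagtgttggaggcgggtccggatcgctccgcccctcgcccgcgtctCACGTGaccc
Atp6v0d1: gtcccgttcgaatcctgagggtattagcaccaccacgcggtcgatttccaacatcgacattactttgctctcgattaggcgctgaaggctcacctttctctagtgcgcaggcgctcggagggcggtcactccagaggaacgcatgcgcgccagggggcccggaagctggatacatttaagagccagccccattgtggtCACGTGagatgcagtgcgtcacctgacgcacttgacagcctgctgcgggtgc
Npc2: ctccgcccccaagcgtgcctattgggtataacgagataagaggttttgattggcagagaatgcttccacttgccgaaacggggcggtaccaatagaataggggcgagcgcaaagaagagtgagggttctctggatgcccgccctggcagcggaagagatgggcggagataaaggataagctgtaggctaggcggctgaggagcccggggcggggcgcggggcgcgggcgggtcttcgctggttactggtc
Ctsz: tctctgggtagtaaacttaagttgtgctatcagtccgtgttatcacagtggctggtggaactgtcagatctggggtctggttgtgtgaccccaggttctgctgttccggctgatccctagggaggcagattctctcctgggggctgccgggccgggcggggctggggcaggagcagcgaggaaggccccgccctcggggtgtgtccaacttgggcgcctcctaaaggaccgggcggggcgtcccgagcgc

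Variation between rats differed from gene to gene. The coefficient of variation within groups, averaged over the 3 groups with all rats, was 6.37% to 14.8% for the 13 pump subunits (median 12.2%) and 7.67% to 38.5% for the 23 lysosomal genes (median 15.9%). Without the 3 libraries it was 6.08% to 13.1% (median 10.1%) and 4.36% to 39.7% (median 12.6%). With all rats Atp6ap1, an accessory subunit of the pump, had the lowest value of all members. Without the 3 libraries Lipa, the acid lipase that frees cholesterol from its esters, had the lowest, at 4.36% against 9.69% with all rats. Some cathepsins reached the high end with all rats, with 38.5% for Ctse, 26.3% for Ctsk, 25.7% for Ctsh and 25.3% for Ctsz. Ctse had few counts, and the part of counting noise in these values was not tested. Single rats also stood far out, such as AKO rat 4KAH27 in Ctsk (500.6 normalized counts, next 292.8). The other cathepsins had 8.66% (Ctsb) to 13% (Ctsl), below the median of the lysosomal genes. The mean log2 value of the 13 pump subunits was lowest in 10RT43 among WT rats, at 12.22, with the next WT rat at 12.48. HIP rats lay between 12.59 and 12.76 and AKO rats between 12.39 and 12.88, so the 3 groups overlapped.

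The V1 sector was represented by 8 subunits. Atp6v1a, the catalytic subunit, had 8481 ± 750.3 normalized counts in WT rats (lowest 6907, median 8464, highest 9332). In HIP rats Atp6v1a was 8940 ± 666 (lowest 7732, median 9142, highest 9829), and in AKO rats it was 8043 ± 1012 (lowest 5710, median 8199, highest 9163). The lowest AKO value was that of 6KAH98 and the lowest WT value that of 10RT43, and the ranges of all groups overlapped. Atp6v1b2, the nucleotide-binding partner of the catalytic subunit, had 10755 ± 1133 in WT rats (lowest 8099, median 10699, highest 12398), 11350 ± 769.8 in HIP rats (lowest 10234, median 11283, highest 13021) and 11497 ± 1049 in AKO rats (lowest 9314, median 11784, highest 13044). Atp6v1d, a subunit of the rotating stalk, had 4906 ± 842 in WT rats (lowest 2889, median 5115, highest 5887), 5423 ± 364 in HIP rats (lowest 4879, median 5454, highest 5991) and 5017 ± 709 in AKO rats (lowest 4040, median 5163, highest 6360). Both subunits were lowest in 10RT43 among WT rats, and their groups overlapped.

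The V0 sector and its accessory proteins were represented by 5 genes. Atp6v0a1, the large membrane subunit that is the main form in neurons, had 7989 ± 734 normalized counts in WT rats (lowest 6259, median 8167, highest 8743), 8254 ± 522 in HIP rats (lowest 7379, median 8222, highest 8936) and 8642 ± 684 in AKO rats (lowest 7601, median 8804, highest 9866). In 6 of the 10 AKO rats Atp6v0a1 was above the highest WT rat. Atp6ap1 had 7289 ± 523 in WT rats (lowest 6645, median 7223, highest 8300), 7737 ± 398 in HIP rats (lowest 7018, median 7699, highest 8340) and 7379 ± 501 in AKO rats (lowest 6703, median 7384, highest 8503). Here 9 of 10 HIP rats were above the WT median, and 1 was above the highest WT rat.

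HIP vs. WT asks which brain transcripts go with human amylin made in the pancreas. Among the members 1 gene differed at an unadjusted p under 0.05, the threshold of the study, and it was Ctsk, the cathepsin best known for cutting collagen in bone. Ctsk had 152.8 ± 36.5 normalized counts in WT rats (lowest 88.5, median 148.95, highest 228), 188 ± 25.5 in HIP rats (lowest 153.5, median 186, highest 240.4) and 241.1 ± 100 in AKO rats (lowest 164, median 199.7, highest 501). Each of the 10 HIP rats exceeded the WT median for Ctsk, 1 exceeded the highest WT rat, and the lowest WT rat was 10RT43. Ctsk was higher in HIP rats by 0.32 on the log2 scale, a fold of 1.25 (SE 0.126, p = 0.0182, adjusted p = 0.999). Ctsk and Atp6v1d are on a list that the study chose on these same samples, so their directions are not independent evidence.

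The member with the largest difference in HIP vs. WT with all rats was Ctse, a cathepsin with few counts (mean 35.1 in HIP and 26.2 in WT rats). It was higher by 0.41, a fold of 1.33 (SE 0.197, p = 0.0511, adjusted p = 0.999), with 9 of 10 HIP rats above the WT median. Its call came and went with single rats, as it passed in limma without HIP 10RT42, 10RT52 or 10RT53 or WT 10RT44, 10RT45 or 10RT55, and also with estimated reads as a covariate. The difference was 0.31 without the 3 libraries (exact permutation test, p = 0.186).

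Across all 17085 genes tested in HIP vs. WT, 439 had an unadjusted p under 0.05, or 2.57%, with 190 higher (1.11%) and 249 lower (1.46%), and 0 had an adjusted p under 0.05 (0%, limma). The members' share was 2.78%, 1 of 36, near that background, and 0 of 36 had an adjusted p under 0.05. Both shares were below the 5.2% of unchanged genes called when the main test was run on simulated counts. The gap was not tested. Without the 3 libraries with cerebellar or pineal genes, 0 of 36 members had an unadjusted p under 0.05 against 3.78% of all genes, and Ctsk was higher by 0.18 in 8 HIP against 9 WT rats (exact permutation test, p = 0.105). The count moved the other way with estimated reads as a covariate, to 13 of 36 with 4 at an adjusted p under 0.05, while 24% of all genes were called, and Ctsk was then higher by 0.56 (p = 0.000879). With that covariate and without the 3 libraries the count was 1, with 1.66% of all genes called, and Ctsk, at 0.29, did not pass.

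The pump subunits lay slightly above 0 in HIP vs. WT, and the other lysosomal genes were spread around it. All 13 pump fold changes were above 0, between 0.02 and 0.17 on the log2 scale, with a median of 0.08, while 12 of the 23 lysosomal genes were above 0 (11 with quantile normalization, which turned the sign of their median), with a median of 0.00, and the median of all tested genes was 0.00. Without the 3 libraries 11 of the 13 were above 0 and the pump median was 0.04. The lists were not tested. The smallest p among the V1 subunits was that of Atp6v1d, higher by 0.17 (SE 0.0951, p = 0.0966, adjusted p = 0.999) with 8 of 10 HIP rats above the WT median. Among the V0 and accessory subunits it was that of Atp6ap1, higher by 0.09 (SE 0.0492, p = 0.09, adjusted p = 0.999) in 9 of 10 HIP rats. Without the 3 libraries, the differences were 0.10 for Atp6v1d (exact permutation test, p = 0.106) and 0.07 for Atp6ap1 (exact permutation test, p = 0.112). Atp6v1d passed with quantile normalization, at 0.17 (p = 0.0357), and with estimated reads as a covariate, at 0.38 (p = 0.00109), but not with that covariate and without the 3 libraries, at 0.14.

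Among the 4 membrane proteins the smallest p in HIP vs. WT was that of Scarb2, which carries β-glucocerebrosidase to the lysosome. Scarb2 had 1232 ± 255 normalized counts in WT rats (lowest 805, median 1215, highest 1557), 1300 ± 179 in HIP rats (lowest 952, median 1322, highest 1593) and 1276 ± 338 in AKO rats (lowest 481, median 1354, highest 1605). The low AKO value was that of 6KAH98, with the next AKO rat at 1008. The HIP vs. WT difference was 0.09 (SE 0.113, p = 0.412, adjusted p = 0.999), with 8 of 10 HIP rats above the WT median. Lipa had 857 ± 153.8 in WT rats (lowest 444, median 902, highest 994), 919.8 ± 65.3 in HIP rats (lowest 762, median 941, highest 988) and 876 ± 35.2 in AKO rats (lowest 819, median 877, highest 939). The low values were those of the WT rat 10RT43 and the HIP rat 12RT23, both with cerebellar genes. The difference of Lipa was 0.13 in HIP vs. WT (SE 0.107, p = 0.246, adjusted p = 0.999), with 7 of 10 HIP rats above the WT median, and 0.07 without the 3 libraries (exact permutation test, p = 0.0647).

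Tfeb, the transcription factor of lysosomal genes, had 201 ± 47.8 normalized counts in WT rats (lowest 151.9, median 189, highest 323), 176 ± 39.9 in HIP rats (lowest 124, median 164, highest 259.9) and 194 ± 36.3 in AKO rats (lowest 146.3, median 184, highest 244). The highest WT value was that of 10RT43. Tfeb differed by -0.19 in HIP vs. WT (SE 0.133, p = 0.16, adjusted p = 0.999), with 7 of 10 HIP rats below the WT median. Its differences were -0.04 in AKO vs. WT (SE 0.128, p = 0.736, adjusted p = 0.928), with 5 of 10 AKO rats below the WT median, a sign that turned without WT rat 10RT43 to 0.04 (exact permutation test, p = 0.734), and -0.15 in HIP vs. AKO (SE 0.129, p = 0.257, adjusted p = 0.642), with 7 of 10 HIP rats below the AKO median.

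**Figure D2:**
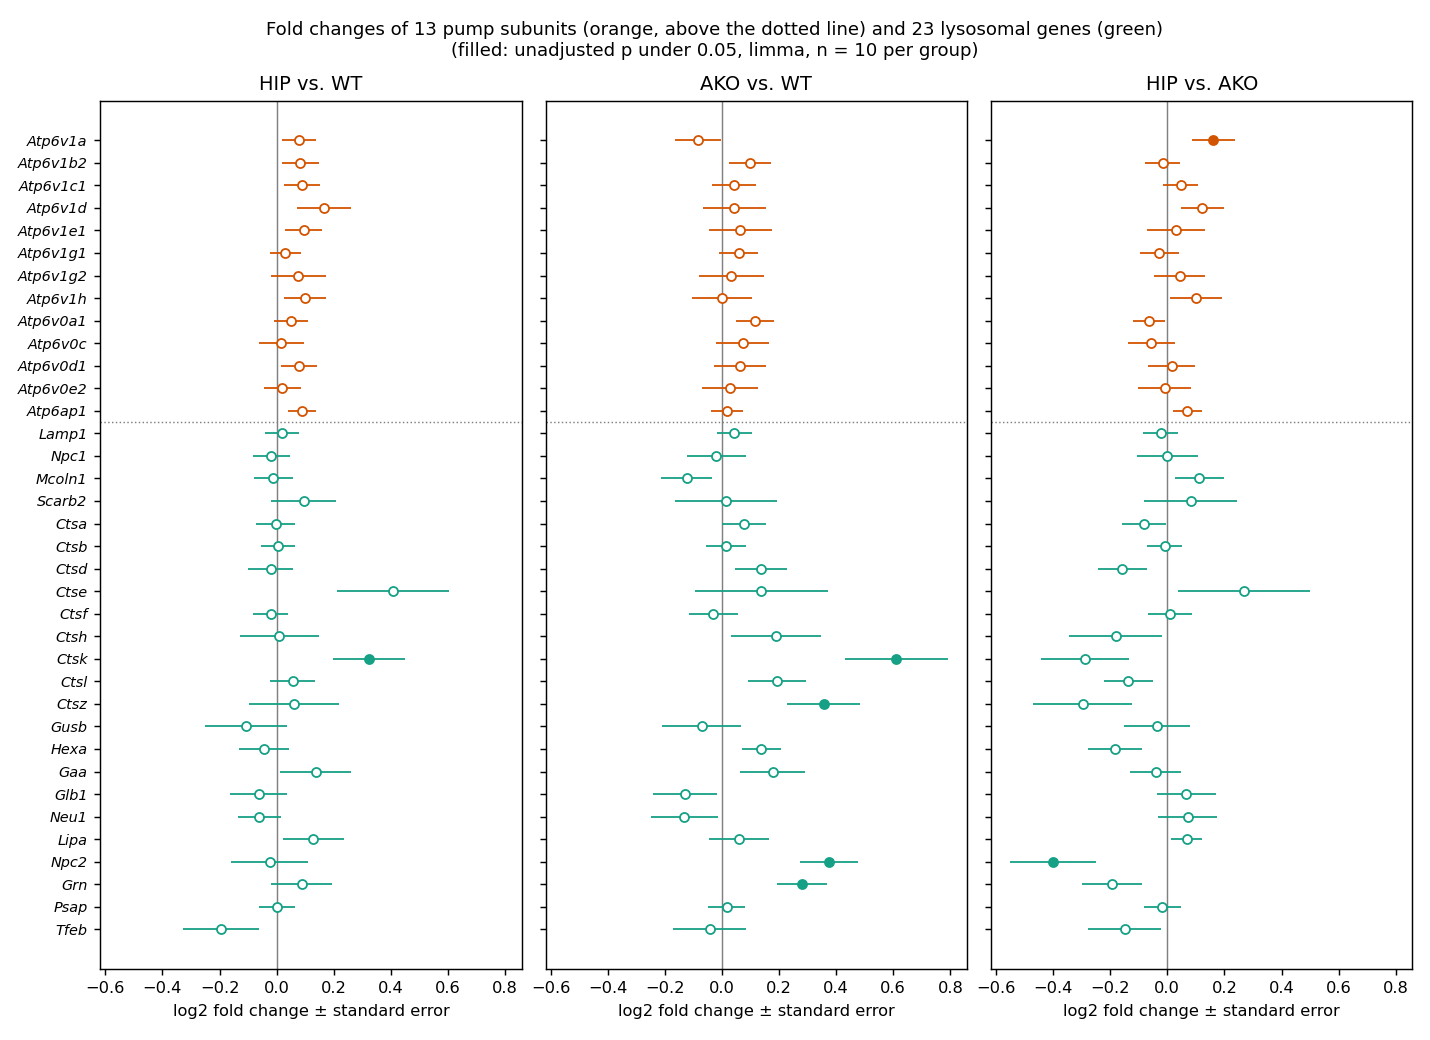
Points are log2 fold changes of the 36 members with their standard errors in each of the 3 comparisons, orange for pump subunits and green for the other lysosomal genes, and filled where the unadjusted p was under 0.05. The filled points are Ctsk in HIP vs. WT, Ctsk, Ctsz, Npc2 and Grn in AKO vs. WT, and Atp6v1a and Npc2 in HIP vs. AKO.

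In AKO vs. WT, 4 of 23 lysosomal genes rose at an unadjusted p under 0.05 and 0 of 13 pump subunits did, where 9.34% of all tested genes were called. The difference between the lists was not tested. The 4 genes were Npc2, the luminal protein that hands cholesterol to Npc1, Grn, the precursor of the lysosomal granulins, and the cathepsins Ctsk and Ctsz. Npc2 had 1442 ± 152.1 normalized counts in WT rats (lowest 1215, median 1433, highest 1745), 1471 ± 479.6 in HIP rats (lowest 969.6, median 1341, highest 2538) and 1893 ± 350.2 in AKO rats (lowest 1270, median 1983, highest 2302). In 7 of 10 AKO rats Npc2 was above the highest WT rat, and in 9 of 10 it was above the WT median. Npc2 was higher by 0.37, a fold of 1.3 (SE 0.102, p = 0.00137, adjusted p = 0.192). Grn had a mean of 923 in WT rats (coefficient of variation 14.2%, lowest 787, median 879.5, highest 1129), 991 ± 215 in HIP rats (lowest 745, median 941, highest 1499) and 1120 ± 138.5 in AKO rats (lowest 822, median 1130, highest 1291). For Grn 9 of 10 AKO rats were above the WT median and 5 above the highest WT rat, with a difference of 0.28, a fold of 1.21 (SE 0.089, p = 0.00479, adjusted p = 0.308).

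Ctsk rose in AKO vs. WT by 0.61, a fold of 1.53 (SE 0.181, p = 0.00282, adjusted p = 0.262), with all 10 AKO rats above the WT median and 4 above the highest WT rat. The highest AKO rat was 4KAH27 at 501, and the next had 293. Ctsz, an exopeptidase, had 404 ± 62 normalized counts in WT rats (lowest 305, median 401, highest 480.3), 440.2 ± 173 in HIP rats (lowest 300.3, median 374.5, highest 854) and 524.5 ± 112 in AKO rats (lowest 313, median 561.5, highest 629). In 7 of 10 AKO rats Ctsz was above the highest WT rat, while 4KAH27 was the lowest AKO rat. Ctsz was higher by 0.36, a fold of 1.28 (SE 0.128, p = 0.0108, adjusted p = 0.379), with 8 of 10 AKO rats above the WT median.

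The members' share, 4 of 36 or 11.1%, was near the background in the main test. Of 17058 genes tested in AKO vs. WT, 1594 had an unadjusted p under 0.05, or 9.34%, with 892 higher (5.23%) and 702 lower (4.12%). The share of called genes that were higher was 56%, and 49.8% with quantile normalization. With that normalization 7 of 36 members were called, all higher, while 1584 of all tested genes were called. The adjusted p was under 0.05 for 17 genes (0.0997%) and for 0 members (limma), of which 4 had an unadjusted p under 0.05. Without WT rat 10RT43 the count was again 4 of 36, with 10.3% of 17025 genes called. In 10 AKO against 9 WT rats the differences were 0.36 for Npc2 (exact permutation test, p = 0.00565), 0.53 for Ctsk (exact permutation test, p = 0.00367), 0.26 for Grn (exact permutation test, p = 0.0123) and 0.31 for Ctsz (exact permutation test, p = 0.0302). With the 4 KAH-numbered AKO rats alone the limma count was 3, Ctsk, Ctsl and Grn, against 10.5% of all genes called in that subset. Ctsk then differed by 0.97, and Npc2 by 0.21 and Ctsz by 0.22, these last not past the threshold. With the 6 AKO-numbered rats it was 6, with Ctsk, Ctsz, Hexa, Npc2 and Grn higher and Neu1 lower, against 7.45% of all genes, with 1 member at an adjusted p under 0.05, and Ctsk differed by 0.37. What sets the differently numbered rats apart is not given in the labels.

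By class, the cofactors and cathepsins had the largest medians. Over the 3 luminal cofactors the median difference in AKO vs. WT was 0.28, over the 9 cathepsins 0.14, with 8 of them above 0, over the 6 glycosidase and lipase genes -0.01 and over the 4 membrane proteins 0.00. The median of all 23 lysosomal genes was 0.06, with 16 above 0, that of the 13 pump subunits 0.04, with 11 above 0, and that of all tested genes 0.00. Without WT rat 10RT43 the medians were 0.04 for the lysosomal genes and 0.00 for the pump subunits, of which 8 were above 0.

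Hexa, a subunit of β-hexosaminidase, had the smallest p of its class in AKO vs. WT. It had 699 ± 57.8 normalized counts in WT rats (lowest 612, median 702, highest 796), 686 ± 130 in HIP rats (lowest 516, median 659, highest 976.5) and 771 ± 76.8 in AKO rats (lowest 643, median 791, highest 886). The highest HIP rat was 10RT46, the library with pineal genes, and in 4 of 10 AKO rats Hexa was above the highest WT rat. Its difference in AKO vs. WT was 0.14 (SE 0.068, p = 0.0547, adjusted p = 0.539), with 7 of 10 AKO rats above the WT median. Without 10RT43 it was 0.14 as well, which passed in the exact permutation test (p = 0.0455) and not in limma, the main test.

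Mcoln1, the calcium channel of the lysosomal membrane, had 925 ± 98.9 normalized counts in WT rats (lowest 769.9, median 942, highest 1099), 916 ± 90.2 in HIP rats (lowest 795, median 884, highest 1086) and 855 ± 142.5 in AKO rats (lowest 693, median 826, highest 1152). In 8 of 10 AKO rats Mcoln1 was below the WT median, and the highest AKO rat was 6KAH98. Its difference was -0.12 in AKO vs. WT (SE 0.0897, p = 0.185, adjusted p = 0.659). In the pump, the smallest p was that of Atp6v0a1, with a difference of 0.12 (SE 0.0664, p = 0.0967, adjusted p = 0.586) and 7 of 10 AKO rats above the WT median, and among V1 subunits that of Atp6v1b2, with 0.10 (SE 0.0745, p = 0.2, adjusted p = 0.668) and 8 of 10 above.

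**Figure D3:**
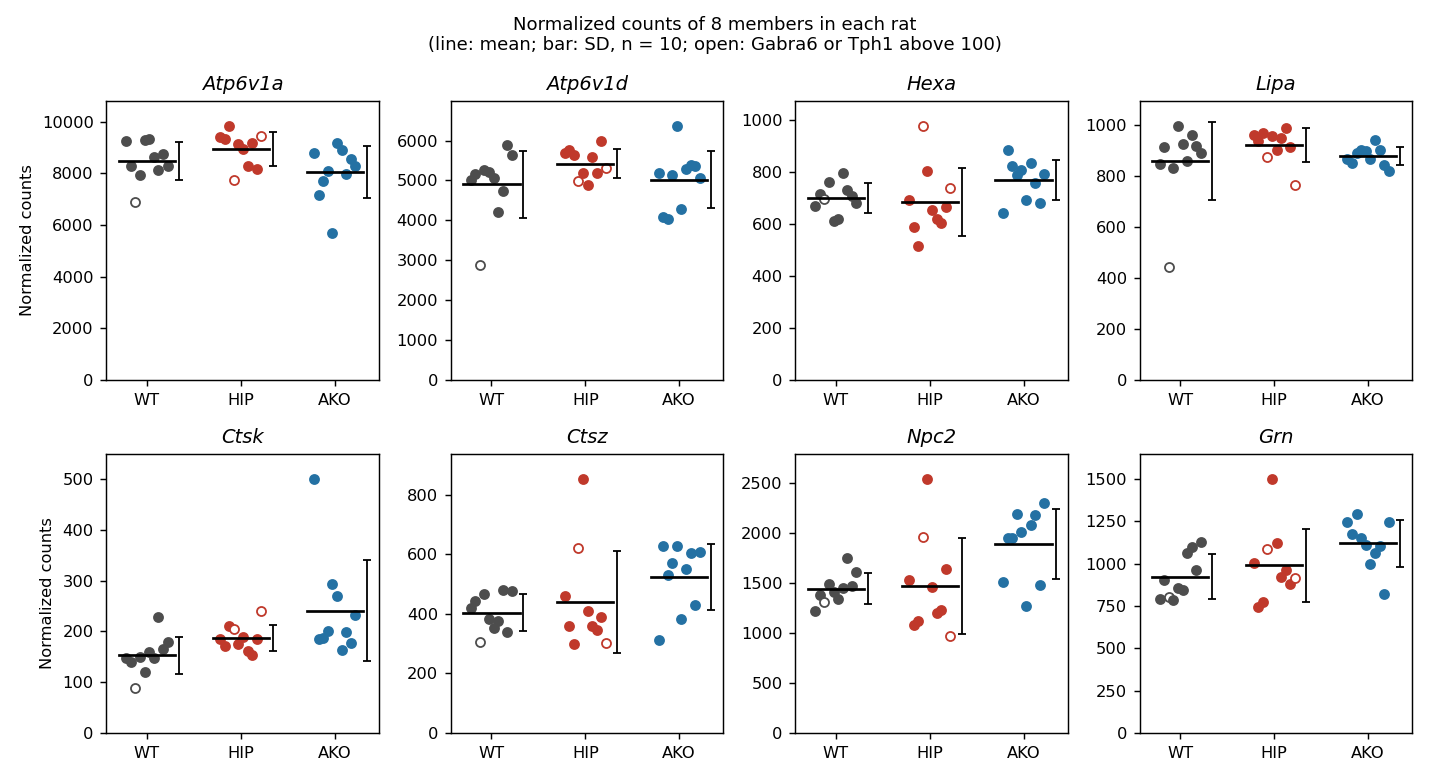
Points are the normalized counts of 8 members in each of the 30 rats on axes that start at 0, with the mean as a line and the SD (n = 10) as a bar, and open points for the 3 libraries with Gabra6 or Tph1 above 100. The AKO rats of Npc2 and Ctsz lie mostly above the WT rats, with 7 of 10 above the highest WT rat in each, and 1 HIP rat, 10RT48, is the highest of all in Ctsz, Npc2 and Grn.

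HIP vs. AKO shares its HIP and AKO rats with the other comparisons, as those share their WT rats, so the 3 sets of values are not independent. Here 1 lysosomal gene, Npc2, was lower and 1 pump subunit, Atp6v1a, was higher in HIP rats at an unadjusted p under 0.05. Npc2 was lower in HIP rats with a difference of -0.40, a fold of 0.758 (SE 0.151, p = 0.0148, adjusted p = 0.283). In 9 of 10 HIP rats Npc2 was below the AKO median and in 5 below the lowest AKO rat, while 10RT48, at 2538, was above every AKO rat. Atp6v1a was higher in HIP rats by 0.16, a fold of 1.12 (SE 0.075, p = 0.0436, adjusted p = 0.378), with 8 of 10 HIP rats above the AKO median and 4 above the highest AKO rat. The call of Atp6v1a ended when any 1 of 12 of the 20 rats was left out, with quantile normalization, with library number as a covariate, and with either the AKO-numbered or the KAH-numbered knockout rats alone. That of Npc2 held with each rat left out and ended with the 4 KAH-numbered rats alone, where the difference was -0.23.

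These 2 members are 5.56% of the 36, below the background. Of 17092 genes tested in HIP vs. AKO, 2179 had an unadjusted p under 0.05, or 12.7%, with 1000 higher (5.85%) and 1179 lower (6.9%), and 29 had an adjusted p under 0.05 (0.17%). The adjusted p was under 0.05 for 0 members (limma), of which 2 had an unadjusted p under 0.05. Without the HIP rats 12RT23 and 10RT46 the limma count was 5 of 36, or 13.9%, against 15.1% of 17024 genes, and the 5 were Atp6v1a, Lipa, Hexa, Npc2 and Ctsk. In those 8 HIP against 10 AKO rats, Lipa was higher by 0.11 (exact permutation test, p = 0.000686) and Atp6v1a by 0.18 (exact permutation test, p = 0.0205). The differences of Hexa, Npc2 and Ctsk were -0.27 (exact permutation test, p = 0.00432), -0.39 (exact permutation test, p = 0.0315) and -0.35 (exact permutation test, p = 0.042).

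With all rats, Lipa differed by 0.07 in HIP vs. AKO (SE 0.0531, p = 0.217, adjusted p = 0.609), with 5 of 10 HIP rats above the highest AKO rat and 12RT23 below the lowest. Hexa differed by -0.18 (SE 0.0937, p = 0.0636, adjusted p = 0.42) with 8 of 10 HIP rats below the AKO median, and Ctsk by -0.29 (SE 0.155, p = 0.077, adjusted p = 0.446) with 7 of 10 below. These are the genes that gained a call when the HIP libraries with cerebellar and pineal genes were left out. The 2 other genes that rose in AKO vs. WT, Ctsz and Grn, had differences of -0.30 (SE 0.172, p = 0.099, adjusted p = 0.486) and -0.19 (SE 0.106, p = 0.0808, adjusted p = 0.452) in HIP vs. AKO, with 8 and 9 of 10 HIP rats below the AKO median. Without HIP rat 10RT48, the highest in both, the limma count was 5 and held Ctsd, Ctsz, Hexa, Npc2 and Grn, with 11% of all genes called. Among the membrane proteins the smallest p was that of Mcoln1, with 0.11 (SE 0.086, p = 0.209, adjusted p = 0.6) and 9 of 10 HIP rats above the AKO median, and among V0 and accessory subunits that of Atp6ap1, with 0.07 (SE 0.0512, p = 0.188, adjusted p = 0.579) and 8 of 10 above.

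Over the lists, 8 of 13 pump subunits were higher in HIP than in AKO rats, with a median of 0.03, and 15 of 23 lysosomal genes were lower, with a median of -0.04, while the median of all tested genes was 0.00. Without the HIP rats 12RT23 and 10RT46 the medians were 0.03 and -0.06. Whether a gene's difference from WT was not the same in HIP and AKO rats is what HIP vs. AKO tests, and in it Npc2 had a p under 0.05 before adjustment, while Ctsk, Ctsz and Grn had not.

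The limma tests with all rats of named members not yet given had p values above 0.05. Of the genes that rose in AKO vs. WT, Npc2 differed by -0.03 in HIP vs. WT (SE 0.136, p = 0.855, adjusted p = 0.999, 5 of 10 HIP rats below the WT median), Grn by 0.09 in HIP vs. WT (SE 0.107, p = 0.426, adjusted p = 0.999, 7 of 10 HIP rats above the WT median) and Ctsz by 0.06 in HIP vs. WT (SE 0.158, p = 0.708, adjusted p = 0.999, 4 of 10 HIP rats above the WT median). The catalytic subunit Atp6v1a differed by 0.08 in HIP vs. WT (SE 0.0606, p = 0.215, adjusted p = 0.999, 7 of 10 HIP rats above the WT median) and by -0.08 in AKO vs. WT (SE 0.0802, p = 0.313, adjusted p = 0.738, 6 of 10 AKO rats below the WT median). Its partner Atp6v1b2 differed by 0.08 in HIP vs. WT (SE 0.0655, p = 0.221, adjusted p = 0.999, 9 of 10 HIP rats above the WT median) and by -0.02 in HIP vs. AKO (SE 0.0615, p = 0.8, adjusted p = 0.926, 8 of 10 HIP rats below the AKO median). Both subunits bind nucleotide, and in AKO vs. WT their differences had opposite signs. The stalk subunit Atp6v1d differed by 0.04 in AKO vs. WT (SE 0.11, p = 0.702, adjusted p = 0.916, 6 of 10 AKO rats above the WT median), which turned to -0.04 without 10RT43 (exact permutation test, p = 0.635), and by 0.12 in HIP vs. AKO (SE 0.0744, p = 0.114, adjusted p = 0.503, 8 of 10 HIP rats above the AKO median).

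In the membrane sector, Atp6v0a1 differed by 0.05 in HIP vs. WT (SE 0.0597, p = 0.407, adjusted p = 0.999, 7 of 10 HIP rats above the WT median) and by -0.06 in HIP vs. AKO (SE 0.0564, p = 0.263, adjusted p = 0.645, 7 of 10 HIP rats below the AKO median). Atp6ap1 differed by 0.02 in AKO vs. WT (SE 0.0564, p = 0.753, adjusted p = 0.934, 7 of 10 AKO rats above the WT median). Among lysosomal membrane proteins and hydrolases the differences were of similar size. Scarb2 differed by 0.01 in AKO vs. WT (SE 0.179, p = 0.943, adjusted p = 0.988, 7 of 10 AKO rats above the WT median), which turned to -0.05 without 10RT43 (exact permutation test, p = 0.849), and by 0.08 in HIP vs. AKO (SE 0.162, p = 0.619, adjusted p = 0.849, 3 of 10 HIP rats above the AKO median). Mcoln1 differed by -0.01 in HIP vs. WT (SE 0.0679, p = 0.864, adjusted p = 0.999, 8 of 10 HIP rats below the WT median). Hexa differed by -0.04 in HIP vs. WT (SE 0.0889, p = 0.621, adjusted p = 0.999, 7 of 10 HIP rats below the WT median) and Lipa by 0.06 in AKO vs. WT (SE 0.106, p = 0.575, adjusted p = 0.864, 1 of 10 AKO rats above the WT median), a sign that turned without WT rat 10RT43, to -0.04 (exact permutation test, p = 0.223).

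Several HIP vs. WT differences were smaller when the 3 libraries were left out. By exact permutation test they were then 0.04 for Atp6v1b2 (p = 0.377), 0.02 for Atp6v0a1 (p = 0.617), 0.05 for Scarb2 (p = 0.69), 0.00 for Ctsz (p = 0.988) and 0.06 for Grn (p = 0.675). Those of Hexa and Mcoln1 were farther from 0, at -0.13 for Hexa (exact permutation test, p = 0.118) and -0.03 for Mcoln1 (exact permutation test, p = 0.714). In AKO vs. WT, Atp6v1b2 differed by 0.05 (exact permutation test, p = 0.33) and Atp6ap1 by 0.00 (exact permutation test, p = 0.938) without 10RT43.

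Referring back to the promoters shown first, 0 of the 7 measured genes with CACGTG had an unadjusted p under 0.05 (limma) in any of the 3 comparisons, with medians of -0.01 in HIP vs. WT, 0.04 in AKO vs. WT and 0.01 in HIP vs. AKO. At the shares of all tested genes, 2.57%, 9.34% and 12.7%, fewer than 1 of 7 would be called in each comparison, so a count of 0 is near the background and is not a result about the motif. Of the 22 measured genes without it, 1, 4 and 2 had, in the same order, with medians of 0.06, 0.06 and -0.03. Lamp1, whose window held the motif 5 times, differed by 0.02 in HIP vs. WT (SE 0.0589, p = 0.743), which turned to -0.02 without the 3 libraries (exact permutation test, p = 0.754), and by 0.04 in AKO vs. WT (SE 0.0615, p = 0.489).

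The wider lysosomal pathway was read from 113 other genes, of which 95 were measured. In HIP vs. WT 1 of the 95 was higher and 2 were lower at an unadjusted p under 0.05, a share of 3.16%. The smallest p values were those of Lamtor4, part of the complex that anchors mTORC1 to lysosomes, Galns, a sulfatase for keratan sulfate, and Hyal2, a hyaluronidase. Lamtor4 had 597 ± 51.1 normalized counts in WT and 518 ± 71.7 in HIP rats, a difference of -0.21 (SE 0.0744, p = 0.01, adjusted p = 0.999), with 7 of 10 HIP rats below the lowest WT rat. Galns had 132.3 ± 44.4 in WT, 177 ± 22.6 in HIP and 104 ± 41.5 in AKO rats, a HIP vs. WT difference of 0.48 (SE 0.17, p = 0.0101, adjusted p = 0.999), with 9 of 10 HIP rats above the WT median. Hyal2 was lower by a difference of -0.18 (SE 0.0825, p = 0.0398, adjusted p = 0.999), with 9 of 10 HIP rats below the WT median. Without the 3 libraries 1 was higher (Galns) and 1 lower (Lamtor4), and the call of Hyal2 ended.

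In AKO vs. WT 7 of the 95 rose and 4 fell at an unadjusted p under 0.05, a share of 11.6%. Cd68, a lysosomal membrane protein of macrophages and microglia, had 36.8 ± 4.80 normalized counts in WT rats (lowest 29.3, median 37.1, highest 43.9) and 65.6 ± 18.6 in AKO rats (lowest 32.2, median 69.9, highest 85.4). In 9 of 10 AKO rats Cd68 was above the highest WT rat, and the difference was 0.77 (SE 0.163, p = 0.000115, adjusted p = 0.0698). Ctss, a cathepsin of microglia, had 2969 ± 502 in WT rats (lowest 1767, median 3044, highest 3532) and 4339 ± 803 in AKO rats (lowest 3113, median 4531, highest 5267). In 8 of 10 AKO rats Ctss was above the highest WT rat, and the difference was 0.55 (SE 0.122, p = 0.0002, adjusted p = 0.0853). Ctsc, which activates serine proteases, was higher by 0.52 (SE 0.155, p = 0.00297, adjusted p = 0.263), with 9 of 10 AKO rats above the WT median. Without WT rat 10RT43 the counts were 8 and 3, with Cd68, Ctss and Ctsc among the genes that passed.

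In HIP vs. AKO 8 of the 95 were higher and 4 lower at an unadjusted p under 0.05, a share of 12.6%. Galns was higher in HIP rats by 0.87 (SE 0.203, p = 0.000308, adjusted p = 0.0892), with 9 of 10 HIP rats above the highest AKO rat. Siae, an esterase that removes acetyl groups from sialic acid, was higher by 0.32 (SE 0.0942, p = 0.00247, adjusted p = 0.181) in 9 of 10 HIP rats. Ctss was lower with a difference of -0.43 (SE 0.135, p = 0.00437, adjusted p = 0.211), with 9 of 10 HIP rats below the AKO median and 10RT48, at 6096, above every AKO rat. Without the HIP rats 12RT23 and 10RT46 the counts were 8 higher and 6 lower of 94, and Galns, Siae and Ctss again passed. The adjusted p was under 0.05 for 0 of the 95 genes in each comparison (limma), with 3, 11 and 12 at an unadjusted p under 0.05, shares near those of all tested genes.

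Microglia markers did not all differ in the same direction. All 9 of the list were measured in each rat, none at 0, with Csf1r the most abundant. Their sum was 2948 to 6486 in WT rats (median 5646), 4424 to 12147 in HIP rats (median 5315) and 3666 to 7860 in AKO rats (median 6901). The high HIP value was that of 10RT48, the rat that was also highest in Ctsz, Npc2 and Grn, and the low WT value that of 10RT43. In AKO vs. WT 3 of the 9 markers rose at an unadjusted p under 0.05, where 9.34% of all tested genes were called. They were Itgam by 0.87 (SE 0.181, p = 8.45e-05, adjusted p = 0.0623), C1qa by 0.56 (SE 0.122, p = 0.000162, adjusted p = 0.079) and Csf1r by 0.31 (SE 0.131, p = 0.0284, adjusted p = 0.474), with 10, 8 and 8 of 10 AKO rats above the WT median. Over the 9 markers 6 differences were above 0 and 3 below, with a median of 0.28 (0.16 without WT rat 10RT43). Tmem119, Selplg and P2ry12 had the differences below 0, of -0.48 (p = 0.0624), -0.21 (p = 0.314) and -0.08 (p = 0.745). Without WT rat 10RT43, the lowest in the sum, the same 3 passed as higher and Tmem119 passed as lower. In HIP vs. WT 0 of the 9 had a p under 0.05, adjusted or not (limma). In HIP vs. AKO, with 12.7% of all tested genes called, Itgam was lower in HIP rats with a difference of -0.85 (SE 0.214, p = 0.00063, adjusted p = 0.107), C1qa with -0.48 (SE 0.226, p = 0.0452, adjusted p = 0.382) and Csf1r with -0.30 (SE 0.134, p = 0.0328, adjusted p = 0.349), each in 9 of 10 HIP rats. Tmem119 was higher by 0.52 (SE 0.218, p = 0.0262, adjusted p = 0.328), with all 10 HIP rats above the AKO median. Without the HIP rats 12RT23 and 10RT46 Itgam and Tmem119 again passed, and the calls of C1qa and Csf1r ended.

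Of 4 markers of border macrophages, the macrophages of vessels and meninges, Cd163, a receptor for haemoglobin, rose in AKO vs. WT by 0.51 (SE 0.19, p = 0.0135, adjusted p = 0.394), with 7 of 10 AKO rats above the highest WT rat. Of all tested genes, 9.34% were called in that comparison and 12.7% in HIP vs. AKO. Without 10RT43, where 10.3% of all genes were called, Mrc1 passed as well. In HIP vs. AKO both were lower in HIP rats, Cd163 with a difference of -0.81 (SE 0.197, p = 0.000416, adjusted p = 0.0982) in 10 of 10 HIP rats and Mrc1 with -0.64 (SE 0.216, p = 0.0073, adjusted p = 0.237) in 8 of 10, and both passed again without 12RT23 and 10RT46. Lyve1 and F13a1 did not pass in these comparisons, and in HIP vs. WT 0 of the 4 had a p under 0.05, adjusted or not (limma).

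Neuron markers, 7 of 7 measured and none at 0 with Snap25 the most abundant, summed to 130921 to 194284 in WT rats (median 169029), 129228 to 192365 in HIP rats (median 169403) and 117108 to 177872 in AKO rats (median 145694). In AKO vs. WT Snap25 fell with a difference of -0.30 (SE 0.129, p = 0.0315, adjusted p = 0.483) and Eno2 with -0.17 (SE 0.0764, p = 0.0349, adjusted p = 0.492), with 9 and 8 of 10 AKO rats below the WT median, and the other 5 markers did not pass. The share of all tested genes called was 9.34% in AKO vs. WT and 12.7% in HIP vs. AKO. Without 10RT43, where 10.3% of all genes were called, the call of Eno2 ended, and Nefl passed as lower. In HIP vs. AKO, where Atp6v1a was higher in HIP rats, Snap25 was higher by 0.33 (SE 0.121, p = 0.0118, adjusted p = 0.268) in 9 of 10 HIP rats, and in HIP vs. WT 0 of the 7 had a p under 0.05, adjusted or not (limma). Without 12RT23 and 10RT46 Syt1 passed beside Snap25 in HIP vs. AKO, where 15.1% of all genes were then called.

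With all rats, 2.57% of all tested genes were called in HIP vs. WT, 9.34% in AKO vs. WT and 12.7% in HIP vs. AKO. The other marker lists had few genes past an unadjusted p of 0.05 and 0 past an adjusted p of 0.05 (limma). Among them were Neurod6, a neocortical transcription factor, in HIP vs. WT, higher by 0.37 (p = 0.00466), and Aqp1, a water channel of choroid plexus, in AKO vs. WT, higher by 1.09 (p = 0.0332). Neurod6 was also higher by 0.32 (p = 0.0232) in HIP vs. AKO, where Gfap of astrocytes differed by -0.49 (p = 0.0275) and Hbb-bs, a globin, by -0.84 (p = 0.0241). The median of the 7 neocortex markers in AKO vs. WT was 0.24 with all rats and -0.19 without 10RT43. Among those that passed in limma without the 3 libraries, Cux2 differed by -0.29 in AKO vs. WT (exact permutation test, p = 0.0547) and Neurod6 by 0.22 in HIP vs. WT (exact permutation test, p = 0.0561), neither past 0.05 in the exact test. The call of Neurod6 in HIP vs. AKO ended in that setting, at 0.21 (exact permutation test, p = 0.136). When the 3 libraries were left out, 3.78% of all genes were called in HIP vs. WT, 10.3% in AKO vs. WT and 15.1% in HIP vs. AKO. Neocortex markers then passed in limma as 1 of 7 higher in HIP vs. WT, 2 lower in AKO vs. WT and 1 higher in HIP vs. AKO. In HIP vs. AKO that share, 14.3%, was near that of all genes. Choroid plexus markers then passed as 1 lower in HIP vs. WT, 2 higher in AKO vs. WT and 1 lower in HIP vs. AKO. In that setting 1 astrocyte marker was higher in AKO vs. WT and 1 lower in HIP vs. AKO, where both blood markers were lower. Oligodendrocyte, endothelium, cerebellum, pineal, striatum and olfactory bulb markers had 0 genes past either threshold in each comparison (limma), with all rats and without the 3 libraries.

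In bulk tissue, fewer cells of a type and less RNA per cell cannot be told apart, and the part of any marker list in the results above was not tested.

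Within the 27 rats outside the 3 libraries, members were set beside cell type markers. Each member was correlated with the mean log2 value of the microglia markers and of the neuron markers, 72 relations in all, by permutation tests with 100000 resamples and adjustment over the 72. The resampling ran over all 27 rats and did not account for genotype, so differences between groups can enter each p. Within all 3 groups r kept its pooled sign for 8 of 13 pump subunits and 13 of 23 lysosomal genes with the microglia mean. With the neuron mean these counts were 5 and 15. With the microglia mean, 6 of 23 lysosomal genes had a positive Pearson r at an adjusted p under 0.05 (Ctse, Ctsh, Ctsz, Hexa, Npc2 and Grn) and 1, Neu1, a negative one. Of the 13 pump subunits, 0 had a positive and 3 a negative one (Atp6v1c1, Atp6v1h and Atp6ap1), and 12 of the 13 r values were below 0, with a median of -0.301. Fewer were below 0 without 10RT48 and 4KAH27, the 2 rats farthest from the median of the microglia mean. There r was above 0 for Atp6v1g1 (0.0939), Atp6v0a1 (0.0942), Atp6v0c (0.183), Atp6v0d1 (0.0546) and Atp6v0e2 (0.131), and below 0 for the other subunits. With the neuron mean, 5 of 13 pump subunits had a positive r at an adjusted p under 0.05, all in the V1 sector (Atp6v1a, Atp6v1c1, Atp6v1d, Atp6v1g2 and Atp6v1h), and 0 a negative one. By rho, Atp6v1c1 (0.331, permutation p = 0.0934, adjusted p = 0.172) and Atp6v1d (0.41, permutation p = 0.0344, adjusted p = 0.0774) did not pass. Without the 2 rats farthest from the median of the neuron mean, r went from 0.521 to 0.274 for Atp6v1c1, from 0.518 to 0.382 for Atp6v1d and from 0.483 to 0.372 for Atp6v1g2. Of the lysosomal genes 2 were positive (Mcoln1 and Psap) and 7 negative (Ctsh, Gusb, Hexa, Gaa, Npc2, Grn and Tfeb). Whether the counts of pump subunits and lysosomal genes, or of V1 and V0 subunits, differ was not tested. Genes other than the members were not correlated with these means, so no background share stands beside the counts.

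The relations of Ctsz, Npc2, Hexa and Ctsh with the microglia mean held without the 2 rats farthest from its median, 10RT48 and 4KAH27. For Npc2, r was 0.746 and Spearman's rho 0.783 (permutation p = 1e-05 for each, the smallest they can give, adjusted p = 0.00024 and 0.000144), and r was 0.859 without the 2 rats. Within WT, HIP and AKO rats, r of Npc2 was 0.804, 0.963 and 0.648. For Ctsz, r was 0.844 and rho 0.824 (permutation p = 1e-05 for each, adjusted p = 0.00024 and 0.000144), and 0.805 without the 2 rats. Within the groups, r of Ctsz was 0.227 in WT rats, 0.969 in HIP rats and 0.887 in AKO rats, so the relation was weak among WT rats. For Ctsh, an aminopeptidase, r was 0.851 and rho 0.886 (permutation p = 1e-05 for each, adjusted p = 0.00024 and 0.000144), and 0.849 without the 2 rats. Hexa had an r of 0.734 and a rho of 0.837 (permutation p = 2e-05 and 1e-05, adjusted p = 0.00036 and 0.000144), and 0.856 without them.

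Grn had an r of 0.571 and a rho of 0.689 with the microglia mean (permutation p = 0.00149 and 9e-05, adjusted p = 0.0105 and 0.000926), 0.836 without the 2 rats, and 0.198 within AKO rats against 0.685 in WT and 0.943 in HIP rats. The relation of Ctse rested on the 2 rats, since its r of 0.61 (permutation p = 0.00064, adjusted p = 0.00512, rho 0.432, permutation p = 0.0253, adjusted p = 0.0651) became 0.315 without them. That of Atp6ap1 did too, from -0.483 (permutation p = 0.01, adjusted p = 0.035, rho -0.425, permutation p = 0.0279, adjusted p = 0.0693) to -0.274. That of Neu1 went from -0.597 to -0.374. For Ctsk, which differed from WT in both groups with all 30 rats, r with the microglia mean was -0.235 (permutation p = 0.224, adjusted p = 0.365) and rho 0.253 (permutation p = 0.202, adjusted p = 0.338). Its r turned to 0.362 without the 2 rats, and was 0.348 within WT, -0.0453 within HIP and -0.649 within AKO rats, so no single direction held. With the neuron mean Ctsk had an r of -0.418 (permutation p = 0.0262, adjusted p = 0.0674) and a rho of -0.574 (permutation p = 0.00231, adjusted p = 0.0133). Within groups that r was -0.677 in WT, -0.0968 in HIP and 0.116 in AKO rats, so it was weak in HIP and AKO rats, and the pooled test did not account for genotype.

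Among pump subunits Atp6v1h, a regulatory subunit of the V1 sector, had the highest r with the neuron mean, 0.637, with a rho of 0.565 (permutation p = 0.00021 and 0.00236, adjusted p = 0.00189 and 0.0133). It was 0.485 without the 2 rats farthest on that axis, 10RT51 and 4KAH35, and 0.819, 0.807 and 0.639 within WT, HIP and AKO rats. With the microglia mean its r was -0.578 and its rho -0.582 (permutation p = 0.00183 and 0.00171, adjusted p = 0.011 and 0.0123), and r was -0.608 without 10RT48 and 4KAH27. Atp6v1a, the subunit higher in HIP than in AKO rats, had an r of 0.5 and a rho of 0.48 with the neuron mean (permutation p = 0.0055 and 0.012, adjusted p = 0.022 and 0.0389), 0.423 without the 2 rats, and 0.4, -0.0392 and 0.44 within WT, HIP and AKO rats, so it did not hold among HIP rats.

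**Figure D4:**
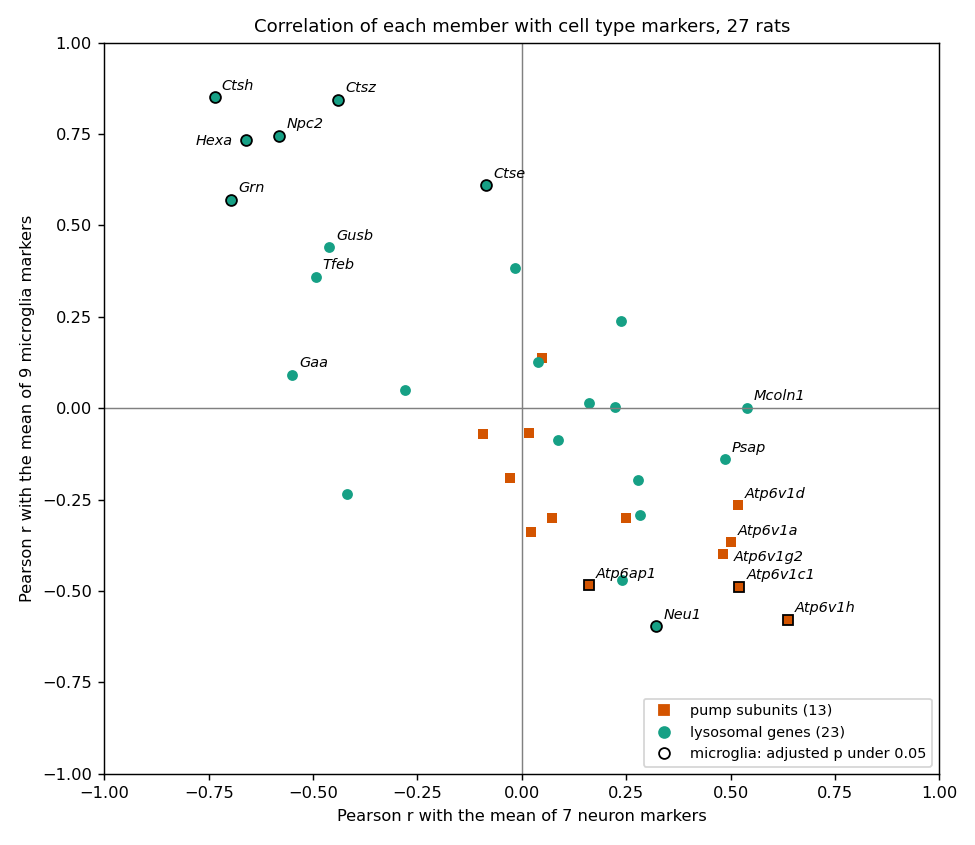
Each point is 1 member, placed by its Pearson r over 27 rats with the mean of 7 neuron markers (horizontal axis) and with the mean of 9 microglia markers (vertical axis), with squares for pump subunits, circles for the other lysosomal genes and a black edge where the adjusted p for microglia was under 0.05. Ctsh, Ctsz, Npc2, Hexa and Grn lie at the upper left, and Atp6v1h lies at the lower right.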

How the data were processed

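RNA-seq of 30 rats (10 WT, 10 HIP, 10 AKO; groups from the labels) was used. Per the submitters' processing notes, the authors ran Partek 10.0.22.0228, STAR 2.7.8a, Bowtie2 and DESeq2 on rn7 with Ensembl genes, 2335 of them named by identifier only. The deposited values are a signal, normalized counts, and 80.1% to 83.4% of low values per library were whole multiples of 1 step (tolerance 0.01 reads), so whole reads were not recovered and read numbers are estimates. Members and lists were chosen with earlier results of these data known. The main test was limma 3.58.1 (R 4.3.3; lmFit, eBayes with trend), two-sided, on log2(normalized count + 1), on the rats compared and on genes with a mean of at least 1, with Benjamini-Hochberg adjustment over all of them. It was tested on simulated counts of 10 against 10 rats, drawn gene by gene from the values of HIP and WT rats without the 3 libraries. Of 200 genes changed by a fold of 2, it recovered 173 at an adjusted p under 0.05, and 4 unchanged genes passed. An unadjusted p under 0.05 was found for 5.2% of unchanged genes. The simulation held no library with genes of other tissues like the 3, which the main test keeps. Exact and random permutation tests, correlations and figures used Python 3.11.15, numpy 2.4.6, scipy 1.17.1, pandas 2.3.3 and matplotlib 3.10.9. Named genes were each member with an unadjusted p under 0.05 with or without the 3 libraries, the member with the smallest p of each role class, Atp6v1d, Ctsk, and 3 wider pathway genes per comparison. Ctse, Ctsh, Atp6v1h, Lamp1, Neu1, members named for 1 rat or 1 correlation, the genes called in an alternative and the marker genes were named after their values were seen. Some results of neocortex markers are not reported here. Alternatives were other pseudocounts, filters, variance models, scalings, covariates and subsets of rats.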

Additional observations from a re-analysis of the deposited data

Results flagged for a closer look

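In 114 groups of 10 rats (each member and the 2 list means in WT, HIP and AKO), a rat was singled out where its gap to the next rat over the range of the group exceeded Dixon's 95% critical value for 10, and 22 such values were found. For independent groups of normally distributed values, chance gives about 1 in 20. The 114 groups reuse the same 30 rats, and members were examined as counts without logs. The number found therefore cannot be set against that share. WT rat 10RT43 had the lowest Atp6v1b2 (8099 normalized counts, next rat 10422), Ctsl (906.5, next 1321) and Lipa (443.7, next 828.6), the highest Glb1 (486.7, next 326) and Tfeb (322.9, next 232), and the lowest mean log2 value of the pump subunits (12.22, next 12.48). AKO rat 6KAH98 had the highest Atp6v0c (25154, next 19243), Atp6v0d1 (11587, next 7900), Atp6v0e2 (9600, next 7008), Lamp1 (8117, next 7068), Ctsa (3503, next 2857) and Ctsf (1997, next 1621), and the lowest Scarb2 (481.1, next 1008). HIP rat 10RT48 had the highest Ctse (65.98, next 43.22), Ctsh (1298, next 967.7) and Grn (1499, next 1124). AKO rat 4KAH27 had the highest Ctsk (500.6, next 292.8) and Neu1 (976.4, next 646.3). Single values were Atp6v1g1 in WT rat 10RT55 (1845, next 1568), Ctsh in WT rat 10RT51 (1278, next 961.8), Ctse in AKO rat 7AKO42 (62.14, next 37.91) and, as a lowest value, Lipa in HIP rat 12RT23 (761.7, next 872.7).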

How the results depend on the processing

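Counts of members with an unadjusted p under 0.05 (limma) moved with the processing, and the cause was not tested. In HIP vs. WT, 1 in the main test (2.57%), the count was 0 without the 3 libraries (3.78% of all genes called), 2 with quantile normalization (2.57%), 2 with library number as a covariate (2.99%) and 13 with estimated reads as a covariate (24% of all genes, 4 members at an adjusted p under 0.05), but 1 with estimated reads and without the 3 libraries (1.66%). In AKO vs. WT, 4 in the main test (9.34%), it was 8 with sample-quality weights (6 higher, 23% of all genes, 4 members adjusted) and 7 with quantile normalization (7 higher, 9.29%). In HIP vs. AKO, 2 in the main test (12.7%), it was 5 without the 3 libraries (15.1%), 6 with sample-quality weights (25.1%, 2 members adjusted), 1 with library number (12.5%), 4 with estimated reads (14.5%) and 6 with estimated reads without the 3 libraries (18%).

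Leaving out each rat in turn gave 1 to 2 members in HIP vs. WT, 4 to 6 in AKO vs. WT and 1 to 5 in HIP vs. AKO. In HIP vs. WT it was 2 without HIP 10RT42, 10RT46, 10RT52 or 10RT53 or WT 10RT44, 10RT45, 10RT55 or 10RT57. In HIP vs. AKO it was 5 without AKO 4KAH27 (14.1% of all genes), AKO 7AKO30 (14.8%) or HIP 10RT48 (11%), 4 without HIP 10RT46 (17.6%), and 1 without AKO 6AKO35, 6AKO52 or 7AKO28 or HIP 10RT37, 10RT41, 10RT42, 10RT49, 10RT53 or 12RT23. Atp6v1a lost its call in HIP vs. AKO without any 1 of these last 9 rats or without 4KAH35, 6KAH98 or 10RT48 (12 of 20 rats, p 0.0522 to 0.0801), and with quantile normalization (p = 0.0874) or library number (p = 0.0512). Pump medians, over all alternatives and rats left out, were 0.04 to 0.19 in HIP vs. WT, 0.00 to 0.07 in AKO vs. WT and -0.01 to 0.07 in HIP vs. AKO, and lysosomal medians -0.02 to 0.08, 0.02 to 0.09 and -0.07 to -0.02. With quantile normalization and median-ratio rescaling, the pump subunits above 0 were 13 and 13 in HIP vs. WT, 12 and 12 in AKO vs. WT and 8 and 8 in HIP vs. AKO, and the lysosomal genes 11 and 12, 15 and 16, and 8 and 7. No paired analysis was possible because replicate numbers follow the order of the records.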
